A study of Mus musculus with 6 samples.

Results

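The integrins and focal adhesion genes described here are a list of 34 genes chosen by symbol, of which 33 had a row among the 30071 genes of the deposited table. Itga4 was not analysed here. The 33 genes comprised 14 integrin subunits, 16 adaptors, kinases and actin linkers, and 3 tensins, and all 33 were among the 18177 genes with enough counts to be tested. They were measured by poly(A) RNA-seq in MC3T3-E1, a pre-osteoblast line of the mouse that can mature into matrix-forming osteoblasts. The cells were grown on polyetheretherketone (PEEK), an implant polymer, with a nano- and microstructured surface. In 3 libraries the culture also received supernatant of RAW264.7 cells, a mouse macrophage line, and 3 libraries were from the same surface alone. All 6 libraries thus share the structured surface, and the comparison holds no flat surface and no medium conditioned by other cells. The labels do not say how the macrophages were grown or how long the pre-osteoblasts stayed in culture.

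Integrins are receptors made of an alpha and a beta subunit that bind matrix outside the cell and, through talin and kindlin, attach to the actin cytoskeleton inside it. Collagen-binding, laminin-binding and RGD-binding receptors differ in their alpha subunit. Around the beta tails, focal adhesions gather scaffolds such as paxillin, the kinases FAK and Src, the ILK-PINCH-parvin complex and mechanical linkers such as vinculin, alpha-actinin and filamin. Tensins bind beta integrin tails and actin and are typical of the more mature, fibrillar type of adhesion. In osteoblasts these receptors mediate attachment to bone matrix and to implant surfaces.

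The total count per library was 74927500 to 82803173. Of 8 markers of the osteoblast lineage, Col1a2 (350 to 648 FPKM), Spp1 (114 to 240.4 FPKM), Runx2 (14.97 to 26.4 FPKM), Alpl (3.93 to 20.6 FPKM), Sp7 (2.69 to 8.86 FPKM) and Col1a1 (1.76 to 3.54 FPKM) were above 1 FPKM in every library. Ibsp lay at 0.0885 to 0.858 FPKM, and Bglap, the osteocalcin gene of mature osteoblasts, was listed at 0 in 3 libraries and reached at most 0.333 FPKM. Of 14 macrophage markers, 11 had a row, and their summed level was 1.95 to 3.17 FPKM with supernatant and 2.10 to 4.97 FPKM on PEEK alone. The pan-leukocyte gene Ptprc had 0 counts in 5 libraries and 4 counts in replicate 3 with supernatant. Among leukocyte integrins, Itgb2 had 70, 164 and 186 counts with supernatant and 110, 446 and 264 counts on PEEK alone, and Itgal and Itgax had at most 8 counts in any library. Replicate 1 with supernatant lay apart from replicates 2 and 3 of its group. The chi-square per gene was 102 and 112 against these, and 35.2 between them. It was lower, at 70.4, 78.6 and 93.8, between this library and replicates 1, 2 and 3 of PEEK alone. Replicate 1 of PEEK alone also lay apart from its group, at 60.5 and 56.7 against replicates 2 and 3, and 25.6 between them. Against replicates 1, 2 and 3 with supernatant that library was at 70.4, 63.4 and 57.8. By this measure the 6 libraries did not sort by group. For 12 of the 33 members, the mean of PEEK alone lay between replicate 1 with supernatant and both replicates 2 and 3. That count was not made over all tested genes or for the other replicates, so it does not single out the members. For some members, values with replicate 1 of either group left out are also given. They are not given for every member that moved, so a value from all 6 libraries alone does not mark a member as unmoved.

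The upstream sequences of 4 members are shown because the tensins are compared with each other in the results and because Src came next to Tns3 in its p-value. They are the 250 bases before the annotated start in RefSeq (GRCm38.p6, a build whose coordinates are not those of the deposited table), read 5′ to 3′ on the gene's strand. These lie at chr11:8664536-8664785 (minus strand), chr1:74124549-74124798 (minus), chr15:102102684-102102933 (plus) and chr2:157424043-157424292 (plus). Capitals mark the GC box GGGCGG on either strand.
Tns3: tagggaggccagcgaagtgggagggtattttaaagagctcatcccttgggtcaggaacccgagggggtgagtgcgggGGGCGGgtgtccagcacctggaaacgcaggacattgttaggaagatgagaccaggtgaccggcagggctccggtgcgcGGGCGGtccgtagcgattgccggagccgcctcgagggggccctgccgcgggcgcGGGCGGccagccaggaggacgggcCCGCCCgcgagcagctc
Tns1: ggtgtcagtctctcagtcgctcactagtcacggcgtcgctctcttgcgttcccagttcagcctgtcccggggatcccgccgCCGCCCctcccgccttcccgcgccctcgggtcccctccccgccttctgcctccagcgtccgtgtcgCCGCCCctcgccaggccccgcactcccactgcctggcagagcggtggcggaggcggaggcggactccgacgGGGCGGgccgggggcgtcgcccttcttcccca
Tns2: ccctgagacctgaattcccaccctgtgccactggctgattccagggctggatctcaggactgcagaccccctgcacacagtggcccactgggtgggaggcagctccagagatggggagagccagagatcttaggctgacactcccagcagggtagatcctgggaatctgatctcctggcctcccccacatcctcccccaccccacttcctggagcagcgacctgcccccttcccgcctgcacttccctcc
Src: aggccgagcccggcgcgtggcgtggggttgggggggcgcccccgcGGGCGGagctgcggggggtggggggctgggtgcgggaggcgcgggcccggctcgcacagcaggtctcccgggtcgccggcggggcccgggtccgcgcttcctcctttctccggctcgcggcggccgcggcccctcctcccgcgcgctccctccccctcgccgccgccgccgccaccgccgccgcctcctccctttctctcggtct
Tns3 held 4 GC boxes, Tns1 held 3, Src held 1 and Tns2 held none in this window, and 32.7% of all 32851 promoter windows of the same length held at least 1. Their GC content was 69.6% for Tns3, 74.4% for Tns1, 63.6% for Tns2 and 82.8% for Src, against a median of 52.4% over all windows. RefSeq windows were found for 26 of the 33 genes (31 windows), and 19 of those 31 held a GC box. None of the 4 windows printed held the letters GGAATG (TEAD factors), TGANTCA (AP-1), TGTGGT (RUNX factors) or a CArG box (SRF) on either strand. Of all windows, 12.6% held the TEAD letters, 6.75% the AP-1 letters, 14.0% the RUNX letters and 1.47% a CArG box. Of the 31 windows of members, 5 held the TEAD letters, 2 the AP-1 letters, 3 the RUNX letters and 2 a CArG box. Whether members differ from all windows was not tested. A window counted once however many matches it held, and matches of different motifs were free to overlap. The printed letters are a description of the sequence and say nothing of binding.

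The integrin genes of these cells comprised a small group of abundant subunits and a larger group of low ones. FPKM values, which are counts per gene length and depth, allow levels of different genes to be set side by side. Over all 6 libraries Itgb1, the shared beta subunit of most matrix receptors, averaged 182 ± 5.26 FPKM (SD, n = 6) and was the highest integrin, followed by Itgb5, the partner of the av subunit in a vitronectin receptor, at 79.9 ± 7.79 FPKM. Of the alpha subunits, Itga5, which makes the fibronectin receptor, and Itga3, a laminin receptor subunit, lay level at 29.7 ± 2.61 and 29.7 ± 5.55 FPKM. Itgav, common to several RGD-binding receptors, followed at 15.2 ± 0.959 FPKM. These 3 alpha genes made up 94.7 to 95.5% of the summed alpha FPKM in every library.

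The remaining integrins were low. Itga6, another laminin-binding subunit, averaged 1.46 ± 0.806 FPKM, and 8 of 14 integrins averaged under 1 FPKM: Itga1, Itga2, Itga7, Itga8, Itga10, Itga11, Itgb3 and Itgb8. All 4 collagen-binding alpha subunits (Itga1, Itga2, Itga10 and Itga11) are in that group. Itga2, the alpha subunit of a platelet and epithelial collagen receptor, had 0, 14 and 11 counts with supernatant and 0, 12 and 17 counts on PEEK alone. A count of 0 allows up to 3 counts at this depth, so its level in replicate 1 of either group was not detectable rather than absent. Itgb3, the partner of av in the osteoclast receptor, was at 18 to 46 counts in all 6 libraries. No adaptor averaged under 1 FPKM, and 14 of 16 averaged 10 FPKM or more. Flna (201 ± 13.5 FPKM) and Actn4 (65.2 ± 4.80 FPKM) were the highest adaptors, and Ptk2 (9.91 ± 0.529 FPKM) and Tln2 (4.96 ± 0.889 FPKM) the lowest.

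**Figure D1:**
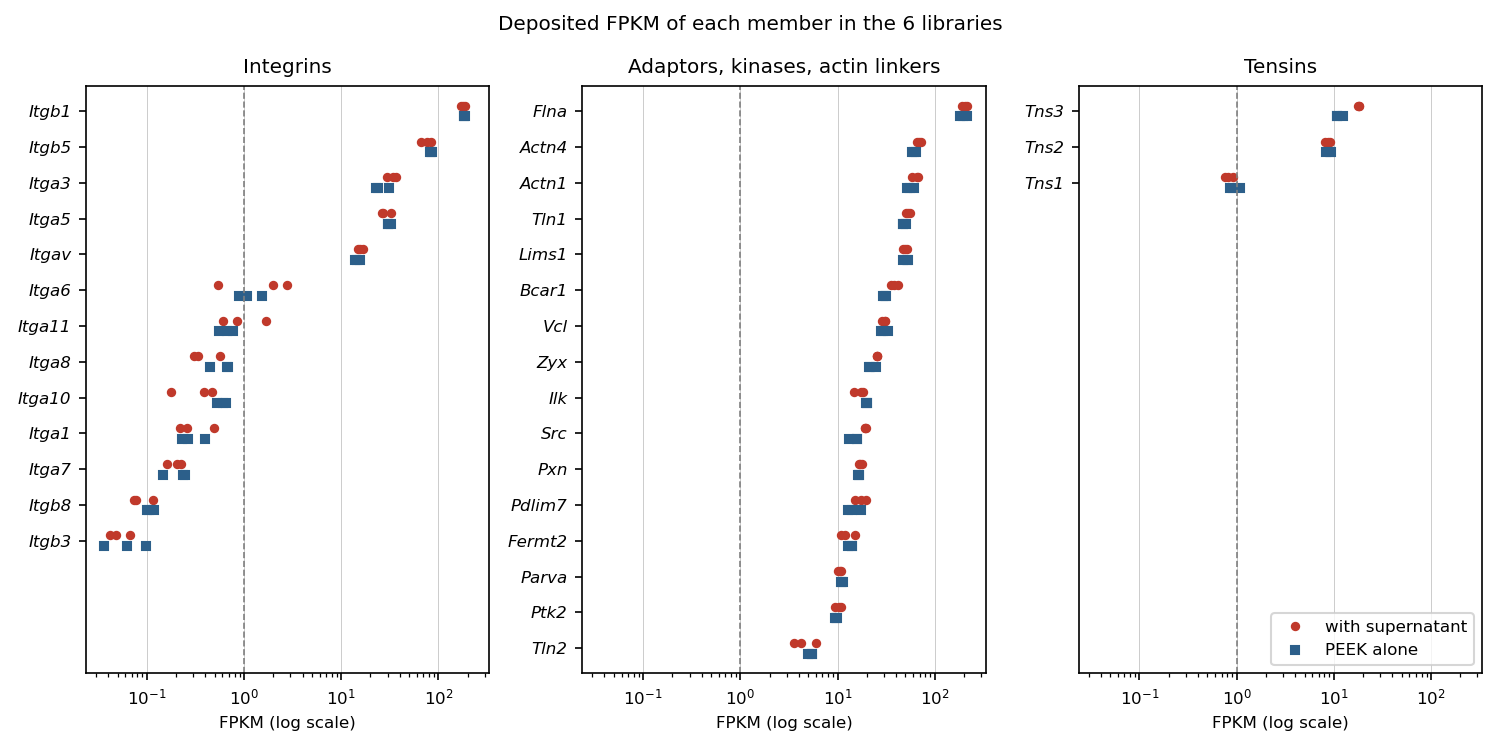
Deposited FPKM (log axis) of 32 members in each library, ordered by mean within integrins, adaptors and tensins; circles are libraries with supernatant, squares libraries on PEEK alone, and the dashed line marks 1 FPKM. Itga2, listed at 0 in 1 library of each group, is not drawn. The 5 integrins from Itgb1 to Itgav and all 16 adaptors lie to the right of the line, and 7 integrins drawn here have means to the left of it.

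Against this background the supernatant comparison asked which adhesion genes differed between cells with and without macrophage supernatant. With edgeR's quasi-likelihood test over all genes, 0 of 33 members passed a Benjamini-Hochberg adjusted p under 0.05 (0.0165% of all tested genes did, 3 genes in all). In such bulk RNA, fewer cells of a type and less RNA per cell cannot be told apart. Tns3 came closest, with an adjusted p of 0.0562, and DESeq2 called 2 members, Tns3 and Src, both higher (1.73% of all genes were called by DESeq2). At a looser adjusted p under 0.1 edgeR called 1 member, Tns3, and 0.11% of all genes. Limma on log2(FPKM + 1) or log2(FPKM + 0.1) called 0 of 24 members tested, where it called 0.0249% of all genes. Without adjustment, 6 members had an edgeR p under 0.05, 4 higher (Tns3, Src, Bcar1 and Itga3) and 2 lower (Ilk and Itga10), where 8.95% of all genes had one (4.65% higher and 4.3% lower). In normalized CPM, which are counts scaled to TMM library sizes, the groups of 9 members did not overlap: Tns3, Src, Bcar1, Zyx and Actn4 were higher with supernatant in all 3 libraries, and Itga10, Itgb5, Ilk and Parva lower. That is 27.3% of members, and 15.2% of all tested genes had groups that did not overlap (7.83% higher and 7.36% lower). In FPKM it was also 9 members (15.3% of all genes), with Tln1 in place of Itgb5, and with DESeq2 size factors the same 9 as in CPM (15.0% of all genes). The members did not lean one way: 16 members had a log2 fold change (with supernatant minus PEEK alone) above 0 and 17 below, with a median of −0.01 for the members and −0.01 for all tested genes.

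By class, integrins had a median log2 fold change of −0.12 (5 above 0 and 9 below) and adaptors one of 0.05 (10 above and 6 below). The median size of the log2 fold change, without its sign, was 0.23 for integrins, 0.14 for adaptors and 0.15 for all tested genes. Whether the classes differ from each other was not tested.

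**Figure D2:**
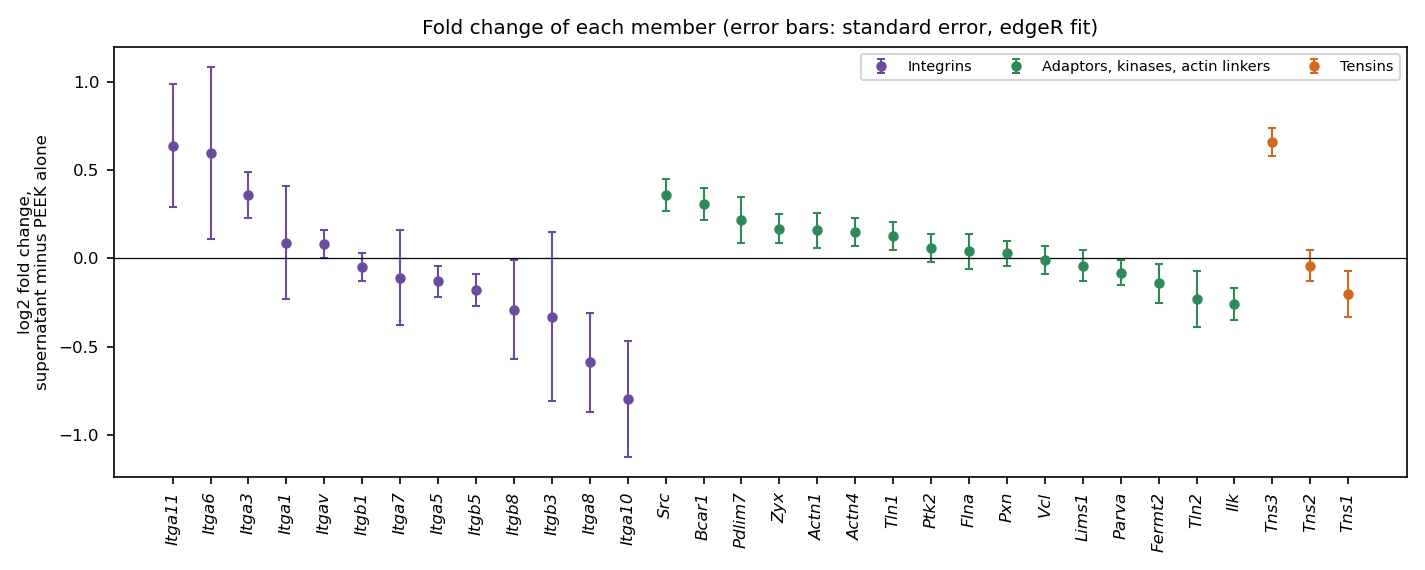
Log2 fold change (supernatant minus PEEK alone) of 32 members in edgeR's fit, ordered within each class; points are estimates and bars 1 standard error, n = 3 libraries per group, without Itga2. Tns3 stands at 0.66, while Tns2 and Tns1 lie at −0.04 and −0.20; the low integrins at both ends carry the widest bars.

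Of the 3 tensins, Tns3 was higher with supernatant in every library, while the groups of Tns2 and Tns1 overlapped. Tns3, a tensin with an SH2 and a PTB domain that binds integrin tails, had 213, 221 and 221 CPM in replicates 1, 2 and 3 with supernatant, against 152, 131 and 132 CPM on PEEK alone. Every library with supernatant was above every library without, and the 3 with supernatant lay close together. Its log2 fold change was 0.66 (SE 0.08; 57.8% higher), with an unadjusted p of 3.50e-05 and an adjusted p of 0.0562 by edgeR and an adjusted p of 9.61e-09 by DESeq2. In edgeR fits that left out each library in turn, its log2 fold change was 0.62 to 0.74 and its adjusted p 0.0272 to 0.406; of these 6 fits, only the one without replicate 1 with supernatant called it, where 1.06% of all genes were called. Tns3 (ENSMUSG00000020422) spans positions 8381652 to 8614681 of chromosome 11 on the minus strand. Positions such as these are the table's own, and neither the labels nor its header name their genome build.

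Tns2, a tensin known from the filter cells of the kidney, had 47.3, 46.4 and 52.0 CPM with supernatant and 50.6, 52.6 and 47.2 CPM on PEEK alone. The groups overlapped, with a log2 fold change of −0.04 and an interval of 2 standard errors on each side from −0.21 to 0.13, and the 0.66 of Tns3 lies outside that interval. Tns1, a tensin of fibrillar adhesions, had 15.2, 13.9 and 13.1 CPM with supernatant and 18.5, 14.5 and 15.7 CPM on PEEK alone, again with overlap (log2 fold change −0.20, interval −0.47 to 0.06). In FPKM the 3 genes summed to 27.6 ± 0.560 with supernatant and 21.1 ± 1.43 on PEEK alone (SD, n = 3 each). Tns3 thus took 65.3, 66.7 and 64.5% of the summed tensin FPKM with supernatant, against 55.3, 51.4 and 53.8% on PEEK alone, and the groups did not overlap. The ratio of Tns3 to Tns2 FPKM was 2.08 ± 0.121 with supernatant and 1.28 ± 0.117 on PEEK alone. For 22 such sums, shares and ratios among members, exact permutation tests of 3 libraries against 3 cannot go below p = 0.1. The tensin sum, the Tns3 share and the ratio of Tns3 to Tns2 each reached that floor (adjusted p = 0.314 over the 22). Each contains Tns3, the member of smallest p, so they restate its difference and are not separate results.

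**Figure D3:**
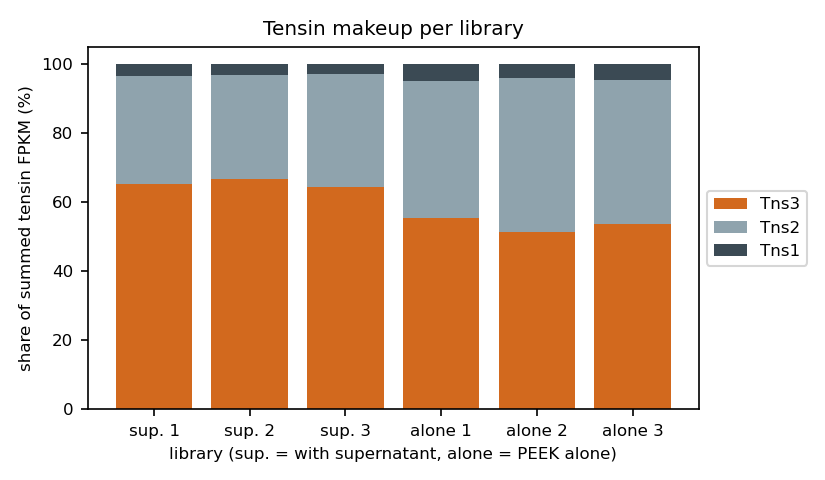
Share of the summed tensin FPKM (%) taken by Tns3, Tns2 and Tns1 in each library, supernatant replicates 1 to 3 at the left and PEEK alone replicates 1 to 3 at the right. Tns3 takes 64.5 to 66.7% with supernatant and 51.4 to 55.3% on PEEK alone.

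Among the kinases and scaffolds, Src and Bcar1 were higher with supernatant in every library, while the groups of Ptk2 and Pxn overlapped. Src, the tyrosine kinase that acts with FAK at adhesions, had 84.9, 87.0 and 87.7 CPM with supernatant and 71.1, 72.0 and 59.7 CPM on PEEK alone. The libraries with supernatant lay close together, and replicate 3 of PEEK alone was the lowest of all. Its log2 fold change was 0.36 (SE 0.09), with an adjusted p of 0.305 by edgeR and 0.0408 by DESeq2. Without replicate 3 of PEEK alone it was 0.27, the smallest over the libraries left out.

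Bcar1, a scaffold phosphorylated by Src that couples adhesions to Crk, had 162, 179 and 198 CPM with supernatant and 147, 140 and 146 CPM on PEEK alone. Here the spread lay with the supernatant, whose 3 libraries were all above the 3 without (log2 fold change 0.31, SE 0.09, edgeR adjusted p = 0.359, DESeq2 adjusted p = 0.0875). With each library left out, the log2 fold change of Bcar1 ran from 0.24 to 0.39, and was highest without replicate 1 with supernatant. Src (ENSMUSG00000027646) spans 157260364 to 157313758 of chromosome 2 on the plus strand, and Bcar1 (ENSMUSG00000031955) 112437106 to 112470441 of chromosome 8 on the minus strand. Ptk2, which encodes FAK, had a mean of 123 ± 10.4 CPM with supernatant and 118 ± 2.43 CPM on PEEK alone, and the paxillin gene Pxn one of 154 ± 6.59 and 151 ± 1.87 CPM (SD, n = 3 each). Both overlapped between groups, with log2 fold changes of 0.06 and 0.03 and intervals of −0.11 to 0.22 and −0.11 to 0.17.

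The genes of the ILK-PINCH-parvin complex, which joins beta integrin tails to actin, had log2 fold changes below 0, and the groups of Ilk and Parva did not overlap. Ilk, its pseudokinase, had 48.4, 42.3 and 51.9 CPM with supernatant and 55.4, 57.8 and 57.95 CPM on PEEK alone. All 3 libraries with supernatant were below the 3 without (log2 fold change −0.26, SE 0.09, edgeR adjusted p = 0.479, DESeq2 adjusted p = 0.284). Parva, the actin-binding member, had 104, 114 and 112 CPM with supernatant and 118, 115 and 117 CPM on PEEK alone, also without overlap but by a small margin (log2 fold change −0.08, SE 0.07). Lims1, which encodes PINCH, averaged 262 ± 10.8 CPM with supernatant and 270 ± 21.6 CPM on PEEK alone and overlapped (−0.04, and 0.00 without replicate 3 of PEEK alone). Ilk (ENSMUSG00000030890, 105385799 to 105392132 of chromosome 7, plus strand) shares its locus with Rrp8 and Taf10 on the opposite strand, at a mean of 2083 and 2501 counts per library against 4120.0 for Ilk. The labels do not say whether counting used strand, so reads of these genes and of Ilk may not be separated. The log2 fold changes of Rrp8 and Taf10 were 0.26 and 0.20, above 0 where that of Ilk was below.

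**Figure D4:**
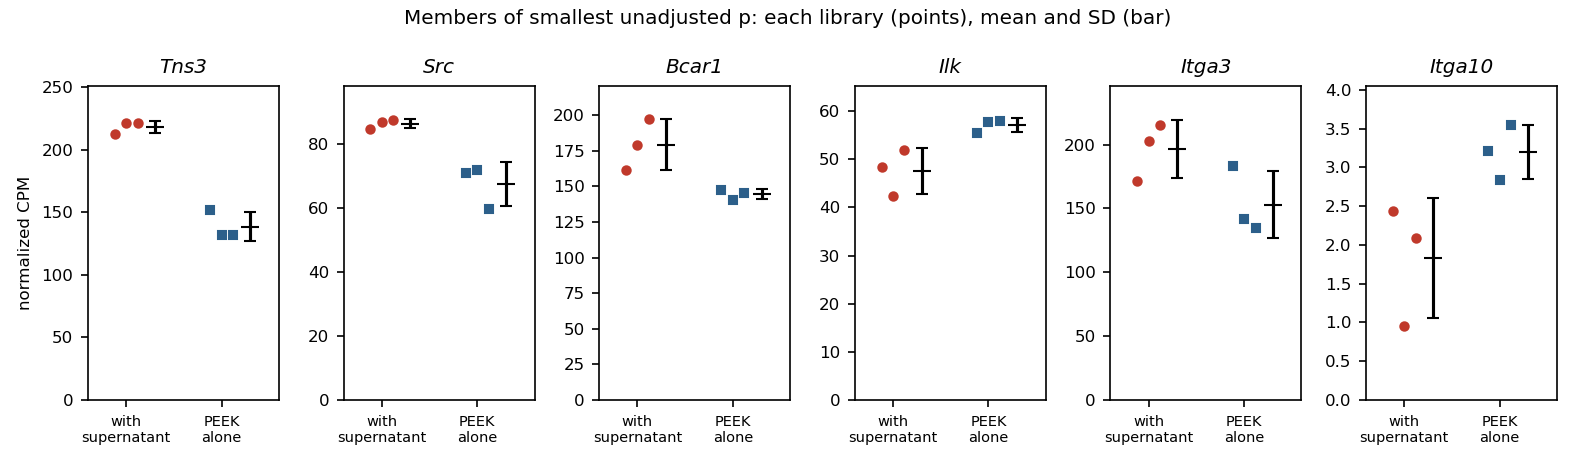
Normalized CPM of the 6 members with an unadjusted edgeR p under 0.05 in each library (circles, with supernatant; squares, PEEK alone), with mean and SD (n = 3) beside them and axes from 0. Tns3, Src and Bcar1 are higher with supernatant and Ilk and Itga10 lower without overlap, while for Itga3 replicate 1 of PEEK alone lies among the libraries with supernatant.

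Of the genes whose proteins switch integrins on, Tln1 had a log2 fold change above 0 and Tln2 and Fermt2 had ones below 0. All 3 intervals included 0, at −0.03 to 0.29, −0.55 to 0.09 and −0.37 to 0.09. Whether these genes differ from each other was not tested. Tln1, the main talin, averaged 535 ± 33.6 CPM with supernatant and 489 ± 14.5 CPM on PEEK alone (log2 fold change 0.13, SE 0.08), and Tln2, its relative best known from muscle and brain, 86.2 ± 21.4 and 101 ± 6.26 CPM (−0.23, SE 0.16). Replicate 1 with supernatant held the highest Tln2 value of all libraries, at 110.0 CPM, against 80.3 and 68.4 CPM in replicates 2 and 3. Without that library the log2 fold change of Tln2 was −0.43, with an edgeR p of 0.00224 before and 0.0854 after adjustment. In that fit 17.3% of all genes had an unadjusted p under 0.05. Fermt2, which encodes kindlin-2, showed the same arrangement, with 78.1, 58.9 and 63.6 CPM with supernatant and 68.5, 76.4 and 75.8 CPM on PEEK alone. Its log2 fold change was −0.14, and −0.25 without replicate 1 with supernatant.

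The actin linkers were abundant, with log2 fold changes of −0.01 to 0.16 over all 6 libraries. Actn4, an alpha-actinin, had 406, 434 and 457 CPM with supernatant and 405, 375 and 391 CPM on PEEK alone, without overlap but with replicate 1 of either group within about 1 CPM of the other (log2 fold change 0.15, SE 0.08). Its relative Actn1 had 325, 375 and 387 CPM with supernatant and 350, 322 and 301 CPM on PEEK alone (0.16, SE 0.10), with overlap. Flna, the filamin that crosslinks actin and the member of highest mean FPKM, had 1834, 2012 and 2104 CPM with supernatant and 2099, 1802 and 1906 CPM on PEEK alone. The range within either group was wider than the difference of their means, and its log2 fold change was 0.04 (interval −0.16 to 0.23). Vcl, the vinculin gene, had a log2 fold change of −0.01 (interval −0.17 to 0.15). It shares its locus with Ap3m1 on the opposite strand (a mean of 10569 counts per library, against 19967 for Vcl). Without replicate 1 with supernatant the log2 fold changes were 0.24 for Actn1, 0.20 for Actn4, 0.10 for Flna and −0.00 for Vcl. The groups of Actn1 and Actn4 did not overlap then, as for 36.4% of all genes.

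Of the LIM proteins that gather on strained actin, Zyx had 140, 143 and 141 CPM with supernatant, against 138, 121 and 118 CPM on PEEK alone. The libraries with supernatant were all higher, although replicate 1 of PEEK alone lay within 2 CPM of the lowest of them, and the log2 fold change was 0.17 (SE 0.08, edgeR adjusted p = 0.610). Pdlim7, also called LMP-1 and known to promote bone formation, averaged 86.6 ± 9.89 CPM with supernatant and 74.2 ± 11.5 CPM on PEEK alone, with overlap (0.22, SE 0.13). Leaving out replicate 1 of PEEK alone gave 0.36 for Pdlim7 and 0.24 for Zyx. Leaving out replicate 1 with supernatant gave 0.15 and 0.18.

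Itgb1 varied little between libraries, its highest FPKM being 1.08 times its lowest. It had 708, 791 and 758 CPM with supernatant and 781, 778 and 772 CPM on PEEK alone, with a log2 fold change of −0.05 (interval −0.21 to 0.11). Itgb5 had 302, 244 and 277 CPM with supernatant and 314, 312 and 307 CPM on PEEK alone. It was lower in all 3 libraries with supernatant in CPM (log2 fold change −0.18, SE 0.09), but in deposited FPKM the groups overlapped, at 84.4, 66.0 and 75.5 with supernatant and 86.4, 84.3 and 82.8 on PEEK alone. With each library left out, the log2 fold change of Itgb5 ran from −0.25 to −0.10, and was lowest without replicate 1 with supernatant. The 4 beta subunits all had a log2 fold change below 0. Summed beta FPKM was 255 ± 2.40 with supernatant and 269 ± 4.62 on PEEK alone, without overlap, although Itgb1 and Itgb5 each overlapped in FPKM. The exact permutation test of this sum gave its floor of p = 0.1 (adjusted p = 0.314 over the 22 quantities). Itgb8, the beta partner of av that activates latent TGF-beta, had 66, 66 and 108 counts with supernatant and 93, 97 and 107 on PEEK alone, with overlap (log2 fold change −0.29, interval −0.85 to 0.28). The sign was lost for Itgb1 without replicate 1 with supernatant, at 0.01, and for Itgb3 without replicate 1 of PEEK alone, at 0.06.

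Itga3 was the only abundant alpha subunit with an unadjusted p under 0.05. It had 172, 203 and 215 CPM with supernatant and 183, 141 and 135 CPM on PEEK alone, so the groups overlapped through replicate 1 of PEEK alone. Its log2 fold change was 0.36 (SE 0.13, edgeR adjusted p = 0.498), and 0.52 without replicate 1 of PEEK alone. Itga3 (ENSMUSG00000001507) spans 94935300 to 94967623 of chromosome 11 on the minus strand. Itga5 had 161, 136 and 136 CPM with supernatant and 163, 155 and 156 CPM on PEEK alone; replicate 1 with supernatant lay inside the range of PEEK alone and replicates 2 and 3 below it (log2 fold change −0.13, and −0.21 without replicate 1 with supernatant). Itgav had 160, 186 and 174 CPM with supernatant and 173, 157 and 162 CPM on PEEK alone (0.08, interval −0.09 to 0.25). Relative to each other, Itga3 over Itga5 in FPKM was 0.925, 1.29 and 1.37 with supernatant and 0.971, 0.789 and 0.746 on PEEK alone. The laminin-binding subunit was thus the higher of the pair in replicates 2 and 3 with supernatant, and the fibronectin-binding subunit in the other 4 libraries.

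The low alpha subunits spread widely between libraries of one group. Itga10, a collagen-binding subunit of cartilage, had 193, 71 and 168 counts with supernatant and 249, 233 and 278 on PEEK alone (2.44, 0.960 and 2.09 CPM, against 3.22, 2.84 and 3.54 CPM). It was lower in all 3 libraries with supernatant, most in replicate 2, with a log2 fold change of −0.80 (SE 0.33, edgeR adjusted p = 0.531) and of −0.50 without that library. Itga10 (ENSMUSG00000090210) spans 96552900 to 96571829 of chromosome 3 on the plus strand. Itga6 had 4.995, 26.1 and 18.9 CPM with supernatant and 14.2, 8.52 and 10.3 CPM on PEEK alone. Both the lowest and the highest values thus lay in the supernatant group, and its log2 fold change was 0.60 over all libraries, 1.04 without replicate 1 with supernatant and 0.12 without replicate 2. Without replicate 1 with supernatant the edgeR p of Itga6 was 0.00214 before and 0.0843 after adjustment, in a fit where 17.3% of all genes had an unadjusted p under 0.05.

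Itga11 and Itga1, collagen receptors of mesenchymal cells, showed the reverse arrangement, with their highest values in replicate 1 with supernatant. Itga11 had 8.75, 3.26 and 4.54 CPM with supernatant and 4.09, 2.96 and 3.59 CPM on PEEK alone. Itga1 had 9.13, 5.07 and 4.25 CPM with supernatant and 4.38, 7.75 and 5.20 CPM on PEEK alone. Without that library the log2 fold changes were 0.15 in place of 0.64 for Itga11 and −0.30 in place of 0.09 for Itga1. The locus of Itga1 contains Pelo on the same strand, with a mean of 1588 counts per library against 470 for Itga1, and the labels do not say how reads shared by overlapping genes were assigned. Itga8, an RGD-binding subunit, averaged 3.04 ± 0.990 CPM with supernatant and 4.59 ± 1.07 CPM on PEEK alone (−0.59, SE 0.28), and Itga7, the muscle laminin receptor subunit, 1.66 ± 0.261 and 1.79 ± 0.463 CPM (SD, n = 3 each). Leaving out replicate 1 of PEEK alone gave −0.77 for Itga8, and leaving out replicate 1 with supernatant gave −0.88.

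**Figure D5:**
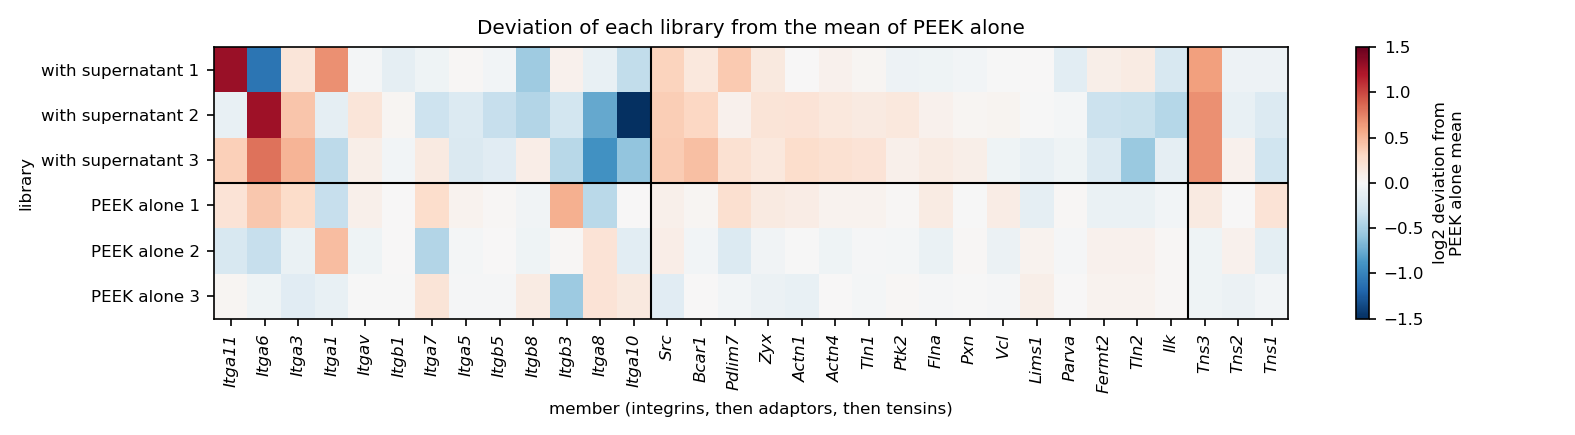
Log2 deviation of normalized CPM (0.1 added) from the mean of PEEK alone for 32 members in each library, red above and blue below, without Itga2; the colour scale ends at 1.5 on either side, which 1 value (Itga10 in replicate 2 with supernatant, −1.63) exceeds. Tns3 is red in all 3 libraries with supernatant, whereas Itga11, Itga6 and Itga1 differ in colour between replicate 1 and replicate 2 with supernatant.

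Leaving out replicate 1 with supernatant widened the set of members that separated the groups. In that fit 15 members had an unadjusted p under 0.05, 8 higher and 7 lower (17.3% of all genes), and 1 passed the adjusted threshold, Tns3. The groups of 21 members did not overlap then (63.6%, where 36.4% of all genes did not). Fewer libraries make separation easier for any gene: without replicate 2 or 3 with supernatant it was 11 and 10 members (22.3% and 23.2% of all genes), and without replicate 1, 2 or 3 of PEEK alone it was 15, 11 and 9 members (30.8%, 21.6% and 21.2%). In these 5 fits edgeR called 0 members, with 0.0265%, 0.0159%, 0.0053%, 0% and 0% of all genes called. Replicate 1 with supernatant was also the library with the highest Runx2 (26.4 FPKM, against 16.8 and 16.0 in replicates 2 and 3 and 14.97 to 18.4 on PEEK alone) and Alpl, the alkaline phosphatase gene (20.6 FPKM, against 5.95 and 4.91 in replicates 2 and 3 and 3.93 to 7.08 on PEEK alone). Sp7, Col1a1, Col1a2, Bglap and Ibsp were also highest in it, and Spp1, the osteopontin gene, was lowest (114 FPKM, against 215 and 240.4 in replicates 2 and 3 and 193 to 219.9 on PEEK alone). The part of this in the adhesion values was not tested.

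Further adhesion-site genes and genes of integrin ligands were read in the same fit. Of 45 other adhesion-site genes 42 were tested, and 0 passed the adjusted threshold by edgeR; 4 higher and 4 lower had an unadjusted p under 0.05 (8.95% of all tested genes did, 4.65% higher and 4.3% lower). Their log2 fold change was above 0 for 28 and below 0 for 14 (48.3% of all tested genes were above 0). The median was 0.06, against −0.01 over all tested genes. Smallest in p were Ablim1, an actin-binding LIM protein, at 110 ± 17.1 CPM with supernatant and 164 ± 15.5 CPM on PEEK alone (log2 fold change −0.57, edgeR adjusted p = 0.265, DESeq2 adjusted p = 0.00387), and Cav1, the main protein of caveolae, at 228 ± 36.0 and 324 ± 26.4 CPM (−0.51, adjusted p = 0.301 by edgeR and 0.0207 by DESeq2). Of 30 ligand genes 26 were tested, 7 with a log2 fold change above 0 and 19 below (48.3% of all tested genes were above 0), with a median of −0.21. Of these 26, 1 higher and 6 lower had an unadjusted p under 0.05, against 4.65% higher and 4.3% lower of all tested genes. The lower ones include Col6a1, Col6a2 and Col6a3, which are chains of the same collagen and so not separate ligands. The microfibrillar collagen gene Col6a3 was lower with supernatant (5.51 ± 1.05 CPM with supernatant and 20.3 ± 1.07 CPM on PEEK alone, edgeR adjusted p = 0.0167). It was the 1 ligand past the threshold, which 0.0165% of all tested genes passed. Its log2 fold change was −1.88, with an adjusted p of 1.06e-25 by DESeq2, and ran from −2.04 to −1.76 with each library left out. By edgeR its adjusted p was 0.0590, 0.0691 and 0.197 without replicates 1, 2 and 3 of PEEK alone, so the call was lost each time. It was 0.0158, 0.0354 and 0.0320 without replicates 1, 2 and 3 with supernatant. Next in p was Npnt, the ligand of the receptor formed by Itga8 and Itgb1, at 5.98 ± 0.990 CPM with supernatant and 8.32 ± 0.645 CPM on PEEK alone (−0.48, adjusted p = 0.480).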

How the data were processed

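Poly(A) RNA of MC3T3-E1 cells was sequenced in 6 libraries as paired-end reads after dUTP second-strand marking, per the labels' protocols. Tools listed per the submitters' processing notes are HISAT2 2.2.1 and Cutadapt 1.9. For the genome build, annotation and counter, and whether strand or molecular identifiers were used in counting: not given in the sources used here. The authors deposited raw counts and FPKM values per gene and library, per the file headers. Titles call 2 libraries of each group biological replicates but mention no separate cultures. The p-values therefore reflect only how these libraries vary, which may be technical. Groups follow the treatment label and replicate numbers the library names.

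Counts were tested with edgeR 4.0.16 in R 4.3.3: TMM, filterByExpr (minimum count 10, total 15), quasi-likelihood fit with group as the only term, Benjamini-Hochberg adjustment over all 18177 tested genes, threshold 0.05. The SE is the size of the log2 fold change divided by the square root of F. Alternatives were DESeq2 1.42.0, its size factors, no low-count filter, limma 3.58.1 on log2(FPKM + 1), keeping genes with 1 FPKM or more in 3 libraries (also with 0.1 in place of 1, and with no filter), the replicate number as a block, a threshold of 0.1 and leaving out each library. The tests were also run on simulated counts with 200 changed genes, all with larger log2 fold changes than any member here. The simulated libraries held no outlying replicate. That run therefore gives no measure of error or power for these members. No 2 libraries held the same values (chi-square per gene 25.6 to 112). Each was taken as 1 replicate, though differing values do not show that the cultures were separate. Intervals and floors cover counting error or the spread of these libraries only.

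The members and lists were chosen with earlier results of these data known. Values in every library are given for members with an unadjusted p under 0.05 or groups that did not overlap, the 3 members of highest mean FPKM among alpha integrins, beta integrins and adaptors, and all tensins; Tln2, Fermt2, Itga1, Itga2, Itga6 and Itga11 were added after their values were seen. From each further list the 2 genes of smallest p are given. Promoter windows are from RefSeq.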

Additional observations from a re-analysis of the deposited data

How the results depend on the processing

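Over all tested genes, the 3 calls of edgeR became 315 with DESeq2 and 20 at a threshold of 0.1. There were 0 calls without a low-count filter, with limma on log2(FPKM + 1) without a filter and with the replicate number as a block, where 1903, 2221 and 1330 genes had an unadjusted p under 0.05. Leaving out each library gave 0 to 199 called genes. With edgeR 0 members were called and 6 had an unadjusted p under 0.05; DESeq2 called 2 (Tns3 and Src), the threshold of 0.1 called 1 (Tns3), and leaving out each library gave 0 to 1. Members whose groups did not overlap numbered 9 to 21 when each library was left out, a set of alternatives chosen after seeing the data, as were FPKM and DESeq2 size factors for that count. On CPM, FPKM and size-factor scales 8 of the 9 were the same genes.

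Of 411 combinations of a member and an alternative fit, 393 kept the sign of the log2 fold change, and 23 members kept it throughout. For the other 10, leaving out each library gave −0.300 to 0.360 for Itga1, −0.807 to 0.545 for Itga2, −0.308 to 0.034 for Itga7, −0.085 to 0.006 for Itgb1, −0.614 to 0.055 for Itgb3, −0.056 to 0.050 for Vcl, −0.001 to 0.071 for Pxn, 0.0 to 0.131 for Ptk2, −0.098 to 0.002 for Lims1 and −0.015 to 0.105 for Flna. Vcl was also at 0.003 with each of the 3 limma fits. The cause was not tested.

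Same-numbered libraries did not deviate together (correlations −0.0302, −0.0116 and 0.0188), and the numbers were taken as names only; with the replicate block 0 members and 0 genes were called, and Tns3 had an unadjusted p of 4.36e-04 and an adjusted p of 0.332 by edgeR. With 3 libraries a group, low integrins were measured loosely: the standard error of the log2 fold change was 0.49 for Itga6, 0.48 for Itgb3 and 1.29 for Itga2. DESeq2 gave no adjusted p for Itga2 and Itgb3.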
